A study of Homo sapiens with 24 samples.

Results

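The genes described here are 49 interferon-stimulated genes and RNA sensors, taken as a fixed list of gene symbols and measured in HBL-1 cells treated with dimethyl fumarate (DMF). They were matched by symbol among the 21831 genes of the deposited tables, with RIG-I under its older symbol DDX58. All 49 were found, and 43 of them passed the low-count filter that left 13419 genes for testing. The list holds 9 RNA sensors and their adaptor, 5 STAT and IRF regulators, 10 enzymes and modifiers of ubiquitin-like conjugation and ADP-ribosylation, 17 antiviral effectors, and 8 other interferon-induced genes.

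HBL-1 is an established human cell line of diffuse large B-cell lymphoma of the activated B-cell type. Cells were kept in RPMI-1640 with 20% fetal calf serum, antibiotics and Plasmocin, and total RNA was sequenced. The DMF groups received 20 µM DMF dissolved in DMSO and were harvested at 6, 12, 24 or 48 h. The control groups received DMSO alone and were harvested at the same 4 times, with 3 libraries in each of the 8 groups. All libraries come from 1 cell line without genetic modification, and the labels do not say whether the replicates are separate cultures, so p-values measure only the spread between libraries, which may be technical.

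Interferons bind receptors at the cell surface whose kinases phosphorylate STAT proteins, and complexes of STAT and IRF proteins then bind interferon-stimulated response elements in the promoters of target genes. The cytosolic helicases RIG-I and MDA5 sense viral RNA and signal through MAVS to induce interferon, and they are themselves interferon-induced. Many B-cell lymphomas of the activated type keep part of this programme switched on without infection, through chronic MYD88, NF-kB and IRF signalling.

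The promoter stretches below are shown because the results for these genes differ by direction and time while each carries the same core motif. They are RefSeq sequences of build GRCh38.p14, from 170 bases before to 30 bases after the gene start, 5′ to 3′ on the gene's strand. Capitals mark each match to the core of the interferon-stimulated response element, which is GAAA, any 2 bases and GAAA again, or TTTC, any 2 bases and TTTC where it lies on the other strand; overlapping matches run together.
IFIH1: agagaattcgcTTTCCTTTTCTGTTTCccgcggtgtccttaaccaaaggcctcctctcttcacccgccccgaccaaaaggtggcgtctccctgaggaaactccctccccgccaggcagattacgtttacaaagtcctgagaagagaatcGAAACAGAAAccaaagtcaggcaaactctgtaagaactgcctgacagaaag
IFIT1: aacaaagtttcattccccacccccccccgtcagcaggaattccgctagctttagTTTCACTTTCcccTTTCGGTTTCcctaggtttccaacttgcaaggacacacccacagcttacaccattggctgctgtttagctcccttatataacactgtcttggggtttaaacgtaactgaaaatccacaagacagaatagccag
EIF2AK2: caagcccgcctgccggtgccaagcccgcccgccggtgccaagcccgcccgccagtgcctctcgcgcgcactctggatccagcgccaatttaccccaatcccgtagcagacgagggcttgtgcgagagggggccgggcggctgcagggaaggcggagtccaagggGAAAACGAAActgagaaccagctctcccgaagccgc
PARP12: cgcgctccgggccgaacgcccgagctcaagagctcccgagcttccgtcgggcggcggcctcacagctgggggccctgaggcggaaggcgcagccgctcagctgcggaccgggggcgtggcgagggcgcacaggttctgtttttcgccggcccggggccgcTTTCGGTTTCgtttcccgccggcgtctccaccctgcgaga
DTX3L: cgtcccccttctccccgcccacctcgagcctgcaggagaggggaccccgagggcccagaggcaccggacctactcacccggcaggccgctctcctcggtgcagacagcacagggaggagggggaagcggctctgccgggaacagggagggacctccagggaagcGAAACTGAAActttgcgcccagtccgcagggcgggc

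The IFIH1 stretch lies at chr2:162318655-162318854 on the minus strand, with matches starting 159, 153 and 21 bases before the gene start. The IFIT1 stretch lies at chr10:89392453-89392652 on the plus strand, with matches starting 116 and 103 bases before the start. The EIF2AK2 stretch (chr2:37156951-37157150, minus strand), the PARP12 stretch (chr7:140062922-140063121, minus strand) and the DTX3L stretch (chr3:122564168-122564367, plus strand) each hold 1 match, starting 6, 10 and 6 bases before the start. The start of PARP9, on the opposite strand, lies 38 bases from that of DTX3L.

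Over windows of 250 bases before to 50 bases after the start, 38 of the 49 members had a RefSeq entry, and 24 of these (63.2%) held that core on either strand, against 4.38% of 27305 genes. The core TTCNNNGAA of the gamma-activated site, which reads the same on both strands, was held by 11 of the 38 (28.9%), against 9.38% of all genes. The interferon-response core was held by 10 of 13 effectors, 6 of 8 ubiquitin-like and ADP-ribosyl genes, 4 of 7 sensors, 4 of 7 other induced genes and none of 3 regulators. Of the members that were lower in DMF at 6 or 12 h, 10 of 18 with an entry (55.6%) held it, as did 10 of 15 (66.7%) of the tested members that were not. DHX58, USP18, TRIM22, APOL6, IFIT2, GBP2, OAS2, MX2, OASL, IRF2 and IRF7 had no entry.

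Library totals were 2870754 counts in DMF 48 h replicate 1 and 23097853 to 40906595 in the other 23 libraries. Replicate 3 at 12 h stood apart in both groups: ribosomal protein genes took 19.1% of counts in the DMF library and 24.2% in the control library, against 8.0 to 12.8% elsewhere. The common dispersion of counts was 0.0521 with all 24 libraries and 0.00212 without these 2. Counts of members called at each time are therefore given for 24 and for 22 libraries. Counts that combine the calls of several times, and those of libraries that did not overlap, are for 24 libraries only. All 8 B-cell markers examined had a mean above 1 CPM (the count of a gene relative to the TMM-scaled library total), and none of 4 T-cell markers did. The plasmacytoid dendritic cell list, of cells known for interferon production, had only LILRA4 of 4 genes above that mean. Its 4 genes summed to 77.8 to 238 CPM per library. Of 4 monocyte and macrophage genes only CD68 was above it (sums of 2.61 to 9.84 CPM). Of 4 epithelial and fibroblast genes only EPCAM was (1.74 to 5.93 CPM). In bulk RNA, fewer cells expressing a gene and less RNA per cell cannot be told apart.

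With all 24 libraries, every call among the 43 tested members at 6, 12 and 24 h was lower in DMF. At 6 h, 19 were called lower and none higher in edgeR's quasi-likelihood test (Benjamini-Hochberg adjusted p under 0.05), where 5.59% of all genes were called lower and 5.03% higher. At 12 h, 26 were lower and none higher, against 9.95% and 7.37% of all genes, and at 24 h 17 were lower and none higher, against 6.6% and 7.81%. At 48 h the split was 7 lower and 5 higher, against 12.5% and 13.3% of all genes, a share near the background. The median log2 fold change of the members was -0.70 at 6 h, -1.25 at 12 h, -0.51 at 24 h and -0.11 at 48 h, while that of all genes stayed between -0.05 and 0.02. On the log2(TPM + 0.5) scale the members' medians were -0.58, -0.49, -0.39 and 0.11, with all-gene medians of -0.12, 0.01, -0.04 and 0.20. The sign at 48 h thus depended on the scale, while the members' median lay below the all-gene median on both scales. Of all calls, 47.4, 42.6, 54.2 and 51.5% were higher in DMF at 6, 12, 24 and 48 h with edgeR, against 26.1, 32.1, 64.1 and 72.2% with limma on TPM.

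Without replicate 3 of 12 h, 29 members were lower and 2 higher at 6 h (23.4% and 23.8% of all genes), and 37 and 2 at 12 h (23.8% and 24.1%). At 24 h the 22 libraries gave 29 lower and 8 higher (27.9% and 29.5%), and at 48 h 15 lower and 9 higher (30.9% and 33.6%). The members counted as higher without replicate 3 therefore stood below the background share at every time. With 24 libraries, the higher members at an unadjusted p under 0.05 numbered 1, 0, 1 and 7 at 6, 12, 24 and 48 h, DESeq2 called 0, 0, 0 and 6, and limma on TPM called 0, 0, 0 and 4. Fitted to the 6 libraries of 12 h alone, edgeR called no member, with 17 of 38 lower and none higher at an unadjusted p under 0.05 and a lowest adjusted p of 0.12, so the 12 h calls rest on the spread shared with the other times. That fit called none of 12408 genes (lowest adjusted p 0.087), with 719 lower and 390 higher at an unadjusted p under 0.05.

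**Figure D1:**
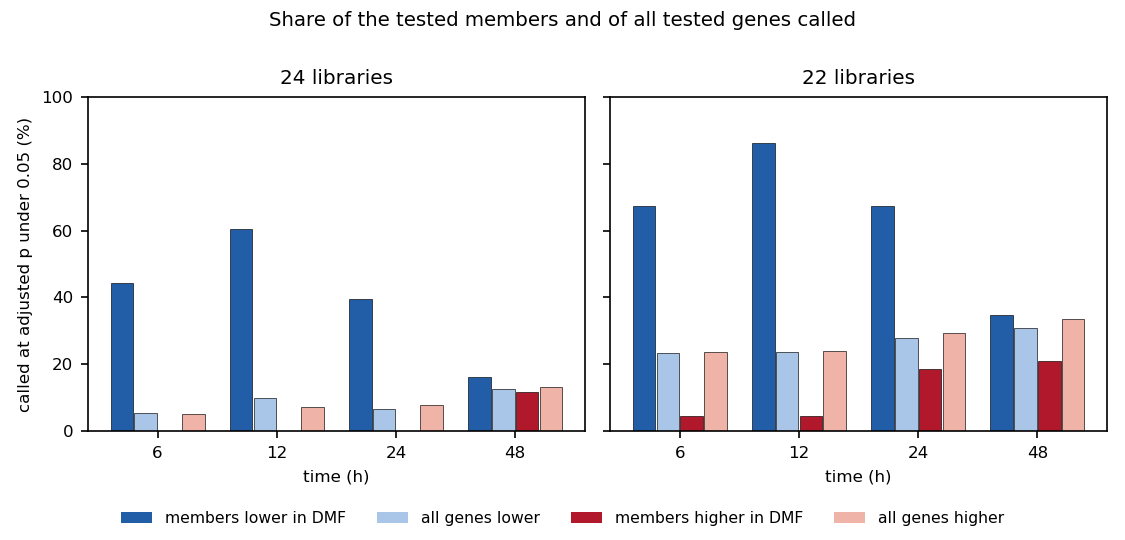
Percent of the 43 tested members and of all 13419 tested genes called lower or higher in DMF than in control (vertical axis, %) at each time (h), with 24 libraries on the left and 22 on the right. Members called lower exceed all genes called lower at 6, 12 and 24 h in both panels, with 19, 26 and 17 members in the 24-library panel.

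With 24 libraries, all 19 members that were lower at 6 h were also lower at 12 h, 10 of them at 24 h and 6 at 48 h. Lower at every time were 5 members, IFIH1, DHX58, OAS1, MX1 and TRIM22, where 1.39% of all genes met this rule. Over all times, 30 members were lower at 1 time or more, 5 were higher at 1 time or more, 2 of them in both directions, and 10 were called at no time. Of all genes, 20.4% were lower and 19.5% higher at 1 time or more, 2.09% were called in both directions, and 62.2% were called at no time.

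With limma on log2(TPM + 0.5), OAS1 alone of the 5 members lower at every time kept its calls at all 4 times. The calls lost on that scale at 6 h were those of IFIH1, MX1, TRIM22, IFI16, PARP14, SP110 and IFIT1 (adjusted p 0.061 to 0.53). At 12 h they were those of DDX58, DDX60, OAS2, OASL, MX2, SAMD9L, IFI16, IFIT1, USP18, HERC6, PARP12, PARP14, EPSTI1, SP110 and IFI44L (0.054 to 0.87). At 24 h DHX58, OAS2, IFIT1, GBP1, TRIM22, USP18, EPSTI1 and IRF1 lost theirs (0.052 to 0.48), and at 48 h DDX58, MX1, TRIM22, IRF2, EIF2AK2 and MAVS (0.18 to 0.69). Each of these kept its direction. The added 0.5 shrinks the fold changes of genes below 1 TPM: IFIT1 at 6 h had -0.21 on that scale and -3.01 in edgeR. Abundant members such as IFI16, at 104 TPM in control at 6 h, are hardly touched by it. Its part in each lost call was not tested. In edgeR without the low-count filter, calls were lost for PARP14, IFI16 and IRF7 at 6 h, IFI16, IFI35 and IFI44L at 12 h, OAS2, HERC6 and EPSTI1 at 24 h and DDX58 at 48 h (0.05 to 0.077).

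**Figure D2:**
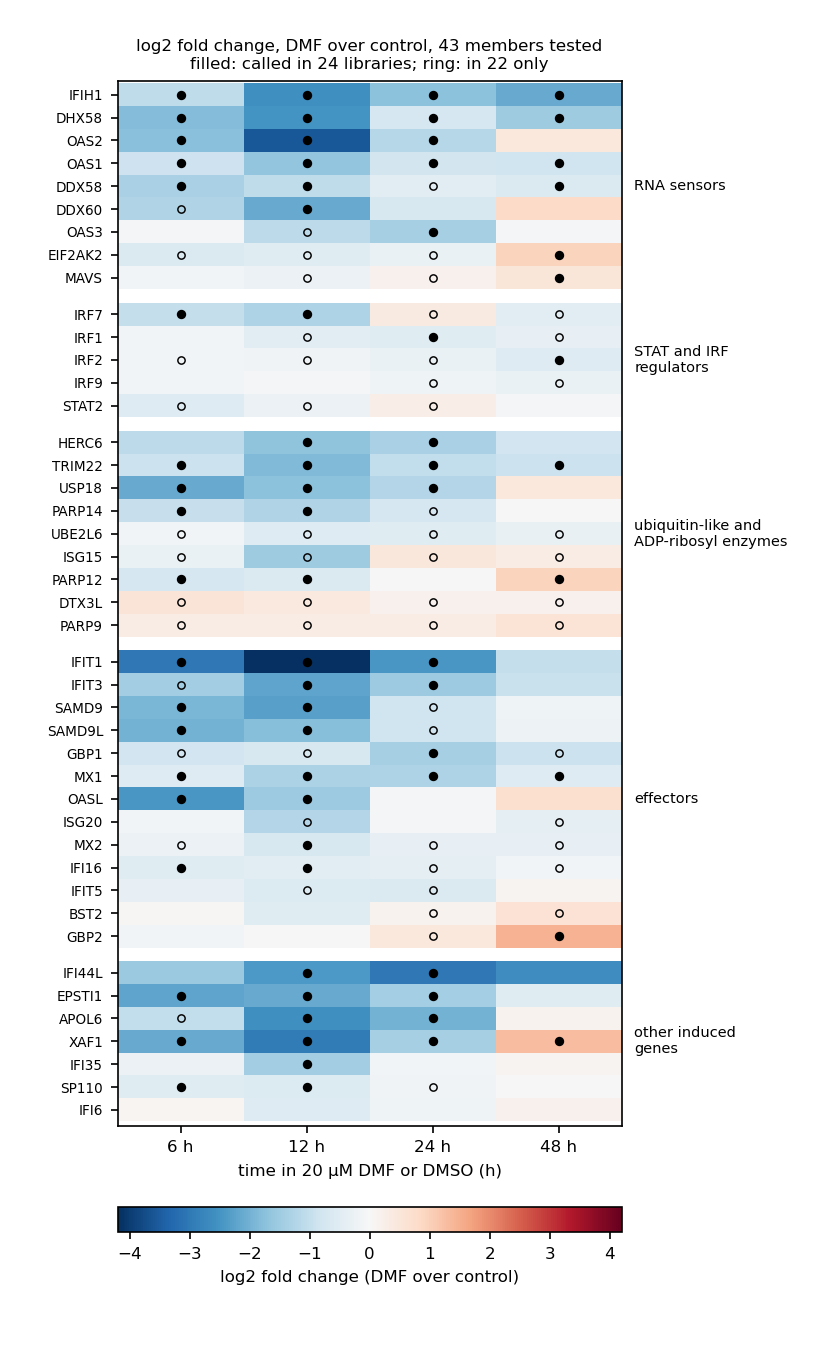
Log2 fold change of DMF over control (colour) for the 43 tested members, in rows grouped by role and ordered by their mean, at 6, 12, 24 and 48 h in columns. Filled dots mark calls with 24 libraries and rings those made with 22 libraries only. Blue cells with filled dots mark 5 of 9 sensor rows and 6 of 13 effector rows at 6 h, and 6 and 8 of these rows at 12 h. The red cells with filled dots lie at 48 h.

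Of the 9 sensors and adaptors, 5 were lower at 6 h and 6 at 12 h (5.59% and 9.95% of all genes). At 24 h 5 were lower (6.6%), and at 48 h 4 were lower and 2 higher (12.5% and 13.3%). With 22 libraries, 7, 9, 7 and 4 were lower at the 4 times (23.4, 23.8, 27.9 and 30.9% of all genes). In that fit 1 was higher at 24 h and 2 at 48 h (29.5% and 33.6%). Of the RIG-I-like receptors, IFIH1 and DHX58 were lower at all 4 times with 24 libraries, and DDX58 at 6, 12 and 48 h. IFIH1 encodes MDA5, which senses long double-stranded RNA, and the gene lies at chr2:162267079-162318703 on the minus strand (GENCODE v29, GRCh38). It had 2.65, 3.3 and 3.14 CPM in DMF at 6 h, against 5.26, 7.13 and 6.79 CPM in control. At 48 h it had 4.56, 2.04 and 2.0 CPM in DMF, against 10.2, 10.2 and 10.7 CPM in control. No DMF library reached any control library of the same time. Its log2 fold changes were -1.07 ± 0.22 (SE, adjusted p = 0.0026) at 6 h, -2.57 ± 0.23 (3.8e-07) at 12 h, -1.72 ± 0.21 (1.9e-05) at 24 h and -2.11 ± 0.24 (2.3e-06) at 48 h. The highest DMF value at 48 h came from the shallow replicate 1, with 15 counts there.

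DHX58 encodes LGP2, a RIG-I-like receptor that lacks the signalling domains of the other members of its family (chr17:42101404-42112733, minus strand). At 12 h it had 0.133, 0.259 and 0.219 CPM in DMF, against 1.29, 0.966 and 1.29 CPM in control. At 48 h it had 1.22, 1.43 and 1.83 CPM in DMF, against 4.44, 4.43 and 4.33 CPM in control. Both groups were higher at 48 h than at 12 h, with the DMF libraries still below all controls. The log2 fold change was -1.81 ± 0.24 (adjusted p = 4.5e-05) at 6 h, -2.51 ± 0.26 (1.6e-06) at 12 h, -0.69 ± 0.20 (0.026) at 24 h and -1.48 ± 0.21 (2.6e-05) at 48 h. The 24 h call was lost when any of the 6 libraries of 24 h was left out (adjusted p 0.051 to 0.15).

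DDX58 encodes RIG-I, which senses short RNA with a 5′ triphosphate (chr9:32455705-32526324, minus strand). It had 2.17, 1.76 and 1.86 CPM in DMF at 6 h, against 5.2, 4.79 and 4.95 CPM in control. At 24 h it had 3.22, 3.85 and 3.27 CPM in DMF, against 3.91, 5.19 and 4.89 CPM in control. The groups stayed apart at all 4 times, narrowly so at 24 h. It was lower at 6 h (log2 fold change -1.37 ± 0.21, adjusted p = 0.00022), 12 h (-1.08 ± 0.21, 0.0012) and 48 h (-0.61 ± 0.22, 0.046; lost without any of 6 libraries, 0.053 to 0.18), and at 24 h it missed the threshold (-0.44 ± 0.20, 0.19; 0.004 with 22 libraries).

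OAS1, OAS2 and OAS3 make oligoadenylates that activate RNase L when they bind double-stranded RNA. OAS1 (chr12:112906777-112933222, plus strand) had 8.3, 8.02 and 10.2 CPM in DMF at 12 h, against 24.5, 25.1 and 34.4 CPM in control, and 11.6, 11.1 and 11.3 CPM in DMF at 48 h, against 18.7, 21.3 and 20.3 CPM in control. Its DMF values lay in a narrow band from 8.02 to 12.6 CPM over all 4 times, below every control library. Its log2 fold change was -1.66 ± 0.14 at 12 h (adjusted p = 1.2e-07) and -0.84 ± 0.14 at 48 h (0.00016). OAS2 was near the detection limit and was lower at 6 h (-1.77 ± 0.39, adjusted p = 0.0052), 12 h and 24 h (-1.20 ± 0.38, 0.039), with 1, 3 and 0 counts in the DMF libraries of 12 h, against 20, 25 and 6 in the control libraries, and the 24 h call was lost without any of 7 libraries (0.051 to 0.16). OAS3 was called only at 24 h, where it had 1.85, 3.14 and 2.66 CPM in DMF, against 6.92, 7.04 and 6.35 CPM in control (-1.41 ± 0.37, adjusted p = 0.014; 0.064 without DMF replicate 1 of 24 h).

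DDX60, a helicase described as promoting RIG-I-like signalling, was called at 12 h, with 0.212, 0.234 and 0.0438 CPM in DMF, against 1.1, 0.817 and 0.374 CPM in control (log2 fold change -2.12 ± 0.50, adjusted p = 0.0056). MAVS, the mitochondrial adaptor of RIG-I and MDA5, and EIF2AK2, the double-stranded RNA-dependent kinase PKR, were the sensor genes that were higher at 48 h.

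**Figure D3:**
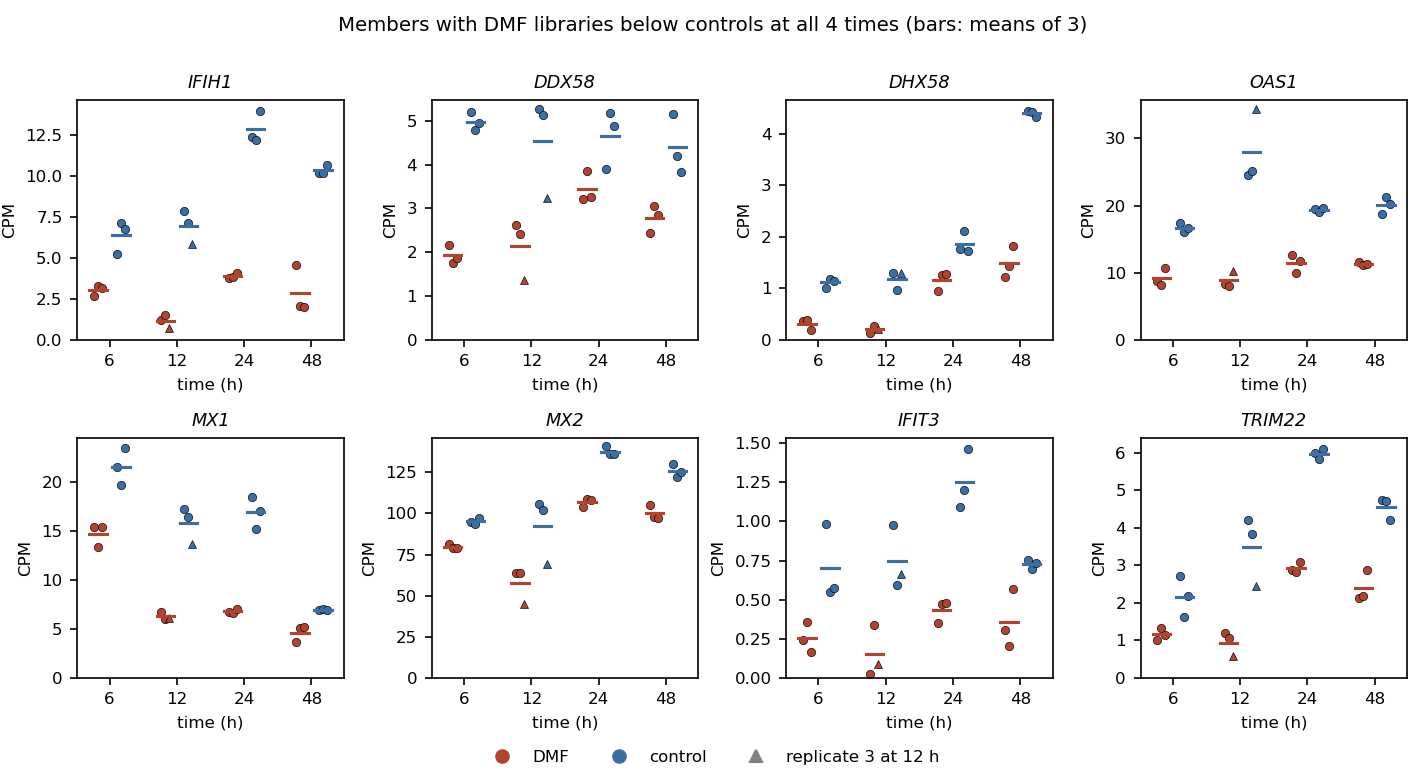
CPM (vertical axes, linear from 0) against time (h) for the 8 members whose 3 DMF libraries lay below the 3 control libraries at every time. Points are libraries, short bars group means of 3, and triangles replicate 3 at 12 h. IFIH1 in DMF stays at or below 4.56 CPM, while its controls range up to 14 CPM.

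The 3 DMF libraries lay below all 3 controls in 33 tested members at 6 h (29.6% of all genes), 22 at 12 h (8.82%), 29 at 24 h (31.8%) and 16 at 48 h (30.2%). They lay above all controls in 2, 0, 7 and 8 members, against 30.2%, 7.89%, 32.1% and 30.6% of all genes. The same direction at all 4 times was seen in 8 members, against 2.95% of all genes: the 5 named above, DDX58, MX2 and IFIT3. At 48 h the share of members below control, 37.2%, was close to that of all genes.

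Of 13 tested effectors, 6 were lower at 6 h and 8 at 12 h (5.59% and 9.95% of all genes). At 24 h 4 were lower (6.6%). At 48 h 1 was lower and 1 higher (12.5% and 13.3%), so neither exceeded the background share. With 22 libraries, 9, 11, 9 and 5 were lower at the 4 times (23.4, 23.8, 27.9 and 30.9% of all genes). In that fit 2 were higher at 24 h and 2 at 48 h (29.5% and 33.6%). MX1 encodes a dynamin-like GTPase that traps viral nucleocapsids (chr21:41420304-41459214, plus strand). It had 6.74, 6.62 and 7.08 CPM in DMF at 24 h, against 18.5, 15.2 and 17.1 CPM in control. At 48 h it had 3.65, 5.06 and 5.18 CPM in DMF, against 6.93, 7.08 and 6.95 CPM in control, so that both groups were lower than at 24 h. Its log2 fold change was -0.55 ± 0.11 (adjusted p = 0.0033) at 6 h, -1.33 ± 0.12 (2.7e-07) at 12 h, -1.31 ± 0.12 (3.4e-07) at 24 h and -0.53 ± 0.12 (0.0029) at 48 h. MX2, a related GTPase that restricts HIV, was far more abundant, at 24.6 to 56.8 TPM in DMF and 40.8 to 72.3 TPM in control, and was called only at 12 h (-0.68 ± 0.13, adjusted p = 0.0011), although its DMF libraries were below control at every time.

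SAMD9 and SAMD9L are paralogs that restrict poxviruses. SAMD9L had 0.854, 0.798 and 0.75 CPM in DMF at 6 h, against 2.94, 3.22 and 3.26 CPM in control. At 48 h the values were 4.26, 2.71 and 2.24 CPM in DMF, against 3.46, 2.94 and 3.2 CPM in control, and the groups overlapped. Its log2 fold change was -1.97 ± 0.32 (adjusted p = 0.00035) at 6 h and -1.78 ± 0.31 (0.00051) at 12 h. SAMD9 was lower by a like amount at both times (-1.93 ± 0.40, adjusted p = 0.003, and -2.27 ± 0.41, 0.00057).

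OASL, a relative of the OAS enzymes without their activity that binds RIG-I, had 0.244, 0.11 and 0.139 CPM in DMF at 6 h, against 1.01, 1.02 and 0.724 CPM in control (log2 fold change -2.46 ± 0.35, adjusted p = 8.3e-05). At 12 h it was still lower (-1.54 ± 0.32, 0.0022). At 24 h it had 0.805, 0.864 and 1.04 CPM in DMF, against 0.728, 0.922 and 1.13 CPM in control, with full overlap and a log2 fold change of -0.04 ± 0.28 (adjusted p = 0.96). The DMF libraries of 24 h lay within the range of the controls.

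The IFIT proteins bind foreign RNA and block its translation. IFIT3 had 0.0265, 0.337 and 0.0877 CPM in DMF at 12 h, against 0.974, 0.595 and 0.664 CPM in control (-2.20 ± 0.51, adjusted p = 0.0046; -3.78 without DMF replicate 2). At 24 h the fold change was -1.52 ± 0.42 (0.017), a call lost without control replicate 3, DMF replicate 1 or DMF replicate 2 of 24 h (0.052 to 0.082). IFIT1 was called lower at 6, 12 and 24 h (adjusted p = 0.013, 0.0033 and 0.03) at the edge of detection: the DMF libraries of 12 h held 1, 0 and 0 counts, against 11, 10 and 3 in control. The 6 h call of IFIT1 was lost without any of 3 libraries (0.055 to 0.1) and the 24 h call without any of the 6 libraries of that time (0.057 to 0.1). IFIT5 was called at no time.

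IFI16, a DNA sensor that ranked second per length in control at 6 h, was lower at 6 h (-0.50 ± 0.14, adjusted p = 0.025) and 12 h (-0.44 ± 0.14, 0.035). It had 115, 110 and 109 CPM in DMF at 6 h, against 160, 153 and 161 CPM in control. These calls were lost without control replicate 1 or 2 of 6 h (0.077 and 0.058) and without control replicate 1, control replicate 2 or DMF replicate 3 of 12 h (0.08, 0.071 and 0.097). GBP1, a guanylate-binding GTPase, was lower at 24 h, with 0.322, 0.321 and 0.24 CPM in DMF, against 0.607, 0.977 and 0.775 CPM in control (-1.41 ± 0.31, adjusted p = 0.0037).

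Of 9 tested genes of ubiquitin-like conjugation and ADP-ribosylation, 4 were lower at 6 h and 5 at 12 h (5.59% and 9.95% of all genes). At 24 h 3 were lower (6.6%). At 48 h 1 was lower and 1 higher (12.5% and 13.3%), so neither exceeded the background share. With 22 libraries, 6, 7, 5 and 2 were lower at the 4 times (23.4, 23.8, 27.9 and 30.9% of all genes). In that fit 2, 2, 3 and 4 were higher (23.8, 24.1, 29.5 and 33.6%). TRIM22, an antiviral E3 ubiquitin ligase, had 1.19, 1.06 and 0.57 CPM in DMF at 12 h, against 4.21, 3.84 and 2.45 CPM in control. At 24 h it had 2.87, 2.82 and 3.09 CPM in DMF, against 5.98, 5.84 and 6.11 CPM in control. Its log2 fold change was -0.91 ± 0.23 (adjusted p = 0.015) at 6 h, -1.86 ± 0.24 (1.7e-05) at 12 h, -1.03 ± 0.21 (0.0026) at 24 h and -0.89 ± 0.23 (0.0072) at 48 h. The 6 h call was lost without control replicate 1 (-0.72, 0.11) or DMF replicate 1 (-0.81, 0.057) of that time.

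USP18 removes ISG15 from proteins and restrains the interferon receptor. It had 0.244, 0.248 and 0.222 CPM in DMF at 6 h, against 1.47, 0.636 and 0.995 CPM in control (log2 fold change -2.12 ± 0.38, adjusted p = 0.001). It was also lower at 12 h (-1.72 ± 0.37, 0.0028) and at 24 h (-1.22 ± 0.36, 0.029), where the call was lost without any of the 6 libraries of that time (0.053 to 0.088). At 48 h it had 0.0, 0.434 and 0.404 CPM in DMF, against 0.229, 0.437 and 0.184 CPM in control, and the groups overlapped.

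PARP14, a mono-ADP-ribosyltransferase, was lower at 6 h (8.06, 10.4 and 8.11 CPM in DMF, against 17, 16.4 and 18.9 CPM in control; -0.98 ± 0.30, adjusted p = 0.042) and at 12 h (-1.25 ± 0.30, 0.0068). HERC6, a HECT-type ligase that conjugates ISG15 in mouse, was lower at 12 h (-1.69 ± 0.52, 0.031) and 24 h (-1.36 ± 0.45, 0.049) at under 1 CPM. The 6 h call of PARP14 was lost without any of 8 libraries (0.051 to 0.12), and the calls of HERC6 without any of 3 at 12 h (0.057 to 0.16) and of 14 at 24 h (0.051 to 0.17). ISG15 itself, its conjugating enzyme UBE2L6, and the partners PARP9 and DTX3L were called at no time with 24 libraries. DTX3L, a ubiquitin ligase that acts with PARP9, had 107, 115 and 106 CPM in DMF at 6 h, against 75.3, 74.7 and 75.2 CPM in control, with no overlap (0.54 ± 0.22, adjusted p = 0.15; 1.4e-08 with 22 libraries). PARP9 was also above control in all libraries at 6, 24 and 48 h (0.56 ± 0.22 at 48 h, adjusted p = 0.066; 7.9e-10 with 22 libraries). The exons of this pair overlap on opposite strands and the strand used in counting is not stated, so reads of the pair may be shared.

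Of 7 tested members of the other induced genes, 3 were lower at 6 h and 6 at 12 h (5.59% and 9.95% of all genes). At 24 h 4 were lower (6.6%), and at 48 h none was lower and 1 higher (12.5% and 13.3%). With 22 libraries, 4, 6 and 5 were lower at 6, 12 and 24 h (23.4, 23.8 and 27.9% of all genes). In that fit none was lower and 1 higher at 48 h (30.9% and 33.6%). APOL6, of the apolipoprotein L family, had 0.557, 0.493 and 0.132 CPM in DMF at 12 h, against 2.95, 3.44 and 0.996 CPM in control. At 24 h it had 1.53, 1.93 and 1.62 CPM in DMF, against 6.49, 7.37 and 6.44 CPM in control. The log2 fold changes were -2.57 ± 0.41 (adjusted p = 0.00017) at 12 h and -2.0 ± 0.35 (0.00054) at 24 h. At 48 h the groups overlapped (3.34, 1.89 and 1.29 CPM in DMF, against 1.57, 1.75 and 1.71 CPM in control), the highest value coming from the shallow library.

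SP110, a nuclear body protein, showed smaller changes with little spread: 36.8, 37.7 and 37.6 CPM in DMF at 6 h, against 53.5, 50.4 and 54.7 CPM in control (-0.50 ± 0.08, adjusted p = 0.00018), and -0.58 ± 0.08 at 12 h (2.5e-05). EPSTI1, named for its induction by stromal contact in breast epithelium, had 0.214, 0.0825 and 0.25 CPM in DMF at 6 h, against 0.883, 0.976 and 0.694 CPM in control (-2.20 ± 0.47, adjusted p = 0.0041), and was lower at 12 h (-2.13 ± 0.48, 0.0038; -2.73 without DMF replicate 2) and 24 h (-1.44 ± 0.45, 0.038). The 24 h call of EPSTI1 was lost without any library of that time other than control replicate 2 (0.062 to 0.22). IFI44L was lower at 12 and 24 h (adjusted p = 0.045 and 0.016), with 2, 0 and 2 counts in the DMF libraries of 24 h, against 8, 7 and 16 in the control libraries. The 12 h call of IFI44L was lost without any of 15 libraries (0.05 to 0.19) and the 24 h call without control replicate 3 (0.092) or DMF replicate 2 (0.076) of 24 h.

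Of the 5 STAT and IRF regulators, 1 was lower at each time (5.59, 9.95, 6.6 and 12.5% of all genes at 6, 12, 24 and 48 h). It was a different gene at 24 and at 48 h from that at 6 and 12 h. With 22 libraries, 3, 4, 3 and 4 were lower (23.4, 23.8, 27.9 and 30.9% of all genes), and 2 were higher at 24 h (29.5%). IRF7, the main inducer of type I interferon genes after RNA sensing, had 3.54, 3.74 and 4.11 CPM in DMF at 6 h, against 7.55, 7.59 and 7.78 CPM in control (log2 fold change -1.01 ± 0.31, adjusted p = 0.045). This call was lost when any of 20 of the 24 libraries was left out (0.051 to 0.2) and with DESeq2 size factors in edgeR (0.073), while the value without replicate 3 of 12 h had an adjusted p of 7.2e-09. At 12 h it had 5.3, 6.15 and 10.4 CPM in DMF, against 11.7, 9.66 and 31.4 CPM in control (-1.28 ± 0.31, 0.0066), and without control replicate 3 the change was -0.58 (0.019). Without DMF replicate 2 the 12 h call was lost (-1.17, 0.055). At 24 h its DMF libraries, at 11.4, 10.4 and 10.6 CPM, were above its controls at 8.92, 8.07 and 8.11 CPM (0.37 ± 0.30, adjusted p = 0.52; 0.00057 with 22 libraries).

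IRF1, an activator of interferon-response promoters, was called at 24 h, with 7.06, 7.46 and 7.61 CPM in DMF, against 10.2, 9.8 and 11.5 CPM in control (-0.51 ± 0.16, adjusted p = 0.036). This call was lost when any of 14 libraries was left out, all 6 of 24 h among them (0.051 to 0.18), with DESeq2 size factors in edgeR (0.06) and with limma on TPM (-0.44, 0.48). IRF2, which competes with IRF1 for the same sites, was lower at 48 h, with 45.0, 52.2 and 52.9 CPM in DMF, against 73.8, 73.3 and 71.3 CPM in control (-0.54 ± 0.16, 0.02; 0.054 and 0.083 without replicate 1 of control or of DMF at 48 h; -0.31 and 0.69 with limma on TPM). STAT2 and IRF9, partners in the complex that binds the response element, were called at no time with 24 libraries. STAT2 had 22.3, 24.1 and 23.6 CPM in DMF at 6 h, against 33.1, 35.5 and 32.7 CPM in control (-0.53 ± 0.18, adjusted p = 0.072; 3.7e-08 with 22 libraries). At 24 h its DMF libraries, at 64.0, 67.1 and 66.2 CPM, were above its controls, at 53.5, 55.2 and 54.3 CPM (0.28 ± 0.18, 0.39; 5.3e-05 with 22 libraries). IRF9 differed by -0.04 to -0.29 on the log2 scale.

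The 5 members called higher at 48 h were XAF1, PARP12, EIF2AK2, GBP2 and MAVS, and leaving out control or DMF replicate 3 of 48 h left 3 of them. XAF1 encodes a pro-apoptotic antagonist of XIAP. It had 0.366, 0.358 and 0.306 CPM in DMF at 6 h, against 1.6, 1.4 and 1.54 CPM in control, and 0.608, 0.562 and 0.647 CPM in DMF at 48 h, against 0.163, 0.408 and 0.157 CPM in control. The groups were apart at both times in opposite order. The log2 fold change was -2.13 ± 0.30 (adjusted p = 6.9e-05) at 6 h, -2.95 ± 0.34 (6.9e-06) at 12 h, -1.41 ± 0.28 (0.0015) at 24 h and 1.30 ± 0.35 (0.0085) at 48 h. The 48 h call was lost without control replicate 3 (1.05, 0.054) or DMF replicate 3 (1.21, 0.053) of that time. In control cells XAF1 at 48 h was below its level at 6 h by a log2 change of -2.62 (adjusted p = 1.6e-06), a comparison that shares the 48 h controls.

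PARP12, a mono-ADP-ribosyltransferase of stress granules, followed the same order. It had 16.2, 16.6 and 15.9 CPM in DMF at 6 h, against 27.5, 26.4 and 25.5 CPM in control (-0.70 ± 0.12, adjusted p = 0.00056), and 13.4, 12.4 and 13.4 CPM in DMF at 48 h, against 7.19, 7.25 and 5.82 CPM in control (0.94 ± 0.12, 1.3e-05). At 24 h the groups overlapped (-0.01 ± 0.12, 0.98). Control PARP12 at 48 h was below its 6 h level by a log2 change of -1.97 (5.2e-10), while DMF libraries stayed between 12.4 and 20.4 CPM at all times.

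EIF2AK2 had 29.7, 30.4 and 29.1 CPM in DMF at 6 h, against 42.8, 44.4 and 47.7 CPM in control (-0.60 ± 0.31, adjusted p = 0.29; 1.5e-08 with 22 libraries), and 39.5, 44.8 and 42.8 CPM in DMF at 48 h, against 24.8, 19.7 and 22.2 CPM in control (0.94 ± 0.31, 0.034). The order of the groups was opposite at these times, without overlap. The 48 h call was lost without any of the 6 libraries of that time (0.053 to 0.097) and with limma on TPM (1.07, 0.21), and control EIF2AK2 at 48 h was below its 6 h level (-1.02, adjusted p = 0.013). Its exons overlap those of GPATCH11 on the opposite strand. Other named members with overlapping exons include GBP2, with GBP7 on the same strand. XAF1, SP110, OAS1, MX1 and IRF1 overlap genes on the opposite strand, and sharing of reads there was not tested.

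GBP2, a guanylate-binding GTPase, had overlapping values at 6 h (3.14, 3.41 and 2.75 CPM in DMF, against 3.34, 3.44 and 3.38 CPM in control; -0.12 ± 0.18, adjusted p = 0.84), and at 48 h it had 6.08, 5.44 and 4.72 CPM in DMF, against 2.19, 1.6 and 1.99 CPM in control (1.46 ± 0.19, 1.3e-05). Its DMF libraries at 48 h were above every other library of the gene. MAVS had 121, 138 and 126 CPM in DMF at 48 h, against 90.4, 81.9 and 99.9 CPM in control (0.50 ± 0.13, 0.0068; 0.71 and 0.19 with limma on TPM).

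**Figure D4:**
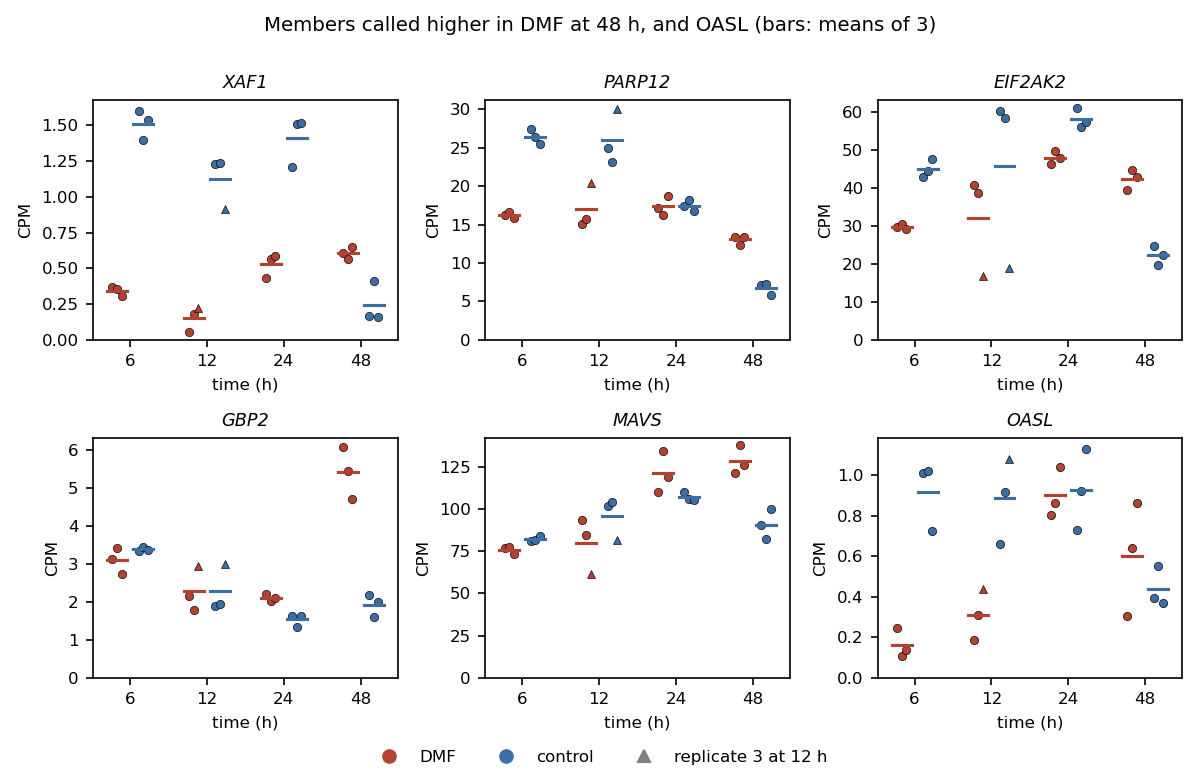
CPM (vertical axes, linear from 0) against time (h) for the 5 members called higher in DMF at 48 h and for OASL, with libraries as points, group means of 3 as bars and triangles for replicate 3 at 12 h. XAF1, PARP12 and EIF2AK2 in DMF lie below control at 6 h and above it at 48 h, where the controls have moved down.

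The DMF effect differed between times in 16 of 43 members when the 3 differences from 6 h were tested jointly (15% of all genes; 34 and 69.1% with 22 libraries). The effect at 48 h was more positive than at 6 h in 11 members and more negative in 1, against 6.47% and 5.88% of all genes, and with 22 libraries in 21 and 4 members, against 26.7% and 24.2%. The 24 h effect exceeded the 6 h effect in 3 members and fell below it in 1 (3.59% and 2.89%). The 48 h effect exceeded the 24 h effect in 4 members and fell below it in none (1.65% and 1.47%). With 22 libraries, the 24 h effect was above the 6 h effect in 13 members and below it in 7 (22.5% and 21.9% of all genes), and the 48 h effect above the 24 h effect in 19 and below it in 6 (21.2% and 20%). XAF1 had the largest shift from 6 to 48 h, by 3.43 ± 0.46 on the log2 scale (adjusted p = 4.6e-05), followed by OASL (3.15 ± 0.48, 0.00017). IFIH1 moved the other way (-1.03 ± 0.32, 0.04).

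Control cells changed over time as well. Against 6 h, 8 members were higher and 2 lower in control at 12 h (12% and 6.84% of all genes), 12 and 4 at 24 h (9.29% and 7.53%), and 8 and 13 at 48 h (21.6% and 20.4%). With 22 libraries, 16 were higher and 4 lower at 12 h (21.1% and 18.5% of all genes), 25 and 4 at 24 h (28.8% and 27.7%), and 20 and 15 at 48 h (38.2% and 36.8%). At 48 h the lower members in control included MX1 (-1.63, adjusted p = 2.9e-09), XAF1, PARP12, USP18 (-1.87, 0.00051) and OASL (-1.06, 0.0089), and the higher ones DHX58 (1.98, 2.6e-07), TRIM22 (1.06, 0.00068) and IFIH1 (0.70, 0.012). The 12 h count was 3 to 14 over the fits that left out 1 library and was lowest without control replicate 3 of 6 h.

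Replicate 3 of 12 h held much higher values of 6 members in both groups. ISG15, the ubiquitin-like modifier, had 9.63, 11.1 and 36.2 CPM in DMF at 12 h, against 16.5, 18 and 123 CPM in control, where the last of each 3 is replicate 3. BST2, the virion tether called tetherin, had 70.3, 78.9 and 250 CPM in DMF, against 81.0, 80.5 and 411 CPM in control. ISG20, an RNA exonuclease, IFI35, a partner of NMI, IRF7 and IFI6, a mitochondrial and endoplasmic reticulum protein, showed the same pattern. Other members went the other way: APOL6, DDX60 and TRIM22 had their lowest 12 h CPM of each group in replicate 3. The control libraries of 12 h also spread widely in TPM, from 1.47 to 13.8 for EIF2AK2 and from 3.42 to 17.1 for STAT2. The log2 fold change of ISG15 at 12 h was -1.48 ± 0.56 (adjusted p = 0.08) with 24 libraries and -0.74 (1.6e-07) with 22, and without control replicate 3 alone it was 0.10 (0.85). That of IFI35 was -1.45 ± 0.49 (0.048), -1.06 (9.6e-07) with 22 libraries, and -0.30 (0.52) without control replicate 3 alone. The IFI35 call was lost when any of 21 libraries was left out (0.058 to 0.52) and with DESeq2 size factors in edgeR (0.061). BST2 and IFI6 changed sign without control replicate 3 of 12 h, to 0.70 (0.11) and 0.34 (0.46). Without DMF replicate 3 of 12 h alone, the values were more negative than with 24 libraries. They were -2.33 (0.0071) for ISG15, -2.24 (0.0029) for IFI35, -1.35 (0.037) for BST2 and -1.23 (0.032) for IFI6. Leaving out 1 of these libraries keeps replicate 3 in the other group only. The part of the replicate 3 libraries in the 12 h values beyond these fits was not tested.

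**Figure D5:**
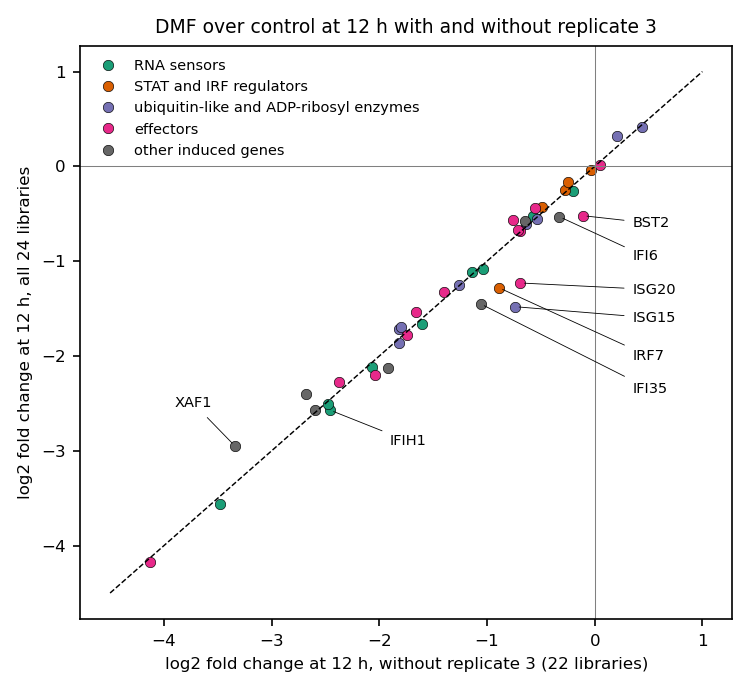
Log2 fold change of DMF over control at 12 h for the 43 tested members, with all 24 libraries (vertical) against the 22 libraries without replicate 3 of 12 h (horizontal), coloured by role, with the dashed line of equality. Most members lie near the line, and ISG15, ISG20, IRF7, IFI35 and BST2 lie below it.

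At later times ISG15 and BST2 were above control. ISG15 had 28.1, 26.7 and 27.5 CPM in DMF at 24 h, against 19.9, 19.6 and 19.6 CPM in control (0.48 ± 0.55, adjusted p = 0.66; 7.2e-07 with 22 libraries). BST2 had 129, 128 and 133 CPM in DMF at 48 h, against 79.1, 97.2 and 78.4 CPM in control (0.62 ± 0.48, 0.41; 1.3e-09 with 22 libraries). The groups did not overlap in either case, and the calls depended on the 2 libraries left out.

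Per transcript length, the members spanned a wide range in control cells at 6 h. BST2 had 109 TPM (107 to 113 over 3 libraries), IFI16 104 TPM (101 to 107), UBE2L6 58.5 TPM (57.2 to 60.6), ISG20 54.2 TPM (52.0 to 55.7) and MX2 49 TPM (47.7 to 50.4). The ranges of BST2 and IFI16 met at 107 TPM, so their order is within the spread between libraries, while the other neighbours in this order did not overlap. In all, 18 members were above 10 TPM and 19 below 1 TPM. Of the 9 sensors, OAS1 (17.4 TPM), MAVS (11.5 TPM) and EIF2AK2 (10.7 TPM) were above 10 TPM in control. The RIG-I-like receptors had lower levels, with IFIH1 at 3.06 TPM, DDX58 at 1.77 TPM and DHX58 at 0.803 TPM in control, against 1.31, 0.62 and 0.203 TPM in DMF.

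The 6 members below the low-count filter were IFI44, IFIT2, IFITM1, RSAD2, HERC5 and CMPK2. HERC5, the main ligase for ISG15 in human cells, had 0 counts in all 24 libraries, which allows up to 0.0741 CPM in the deepest and 0.912 CPM in the shallowest library (3 counts, counting error only). RSAD2, the antiviral enzyme viperin, had 2 counts summed over all DMF libraries and 6 over all control libraries. For IFITM1, a membrane protein that blocks virus entry, these sums were 5 and 12. Those of IFI44, IFIT2 and CMPK2 were 8 against 33, 17 against 41, and 17 against 30, in DMF against control over all libraries. These values are too low for a comparison by group.

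Of 66 further genes of the interferon pathway, 51 were tested, and 1 was higher and 15 lower at 6 h, 1 and 14 at 12 h; at 24 h these numbers were 4 and 8; at 48 h they were 6 and 14 (6 and 33, 5 and 28, 13 and 27, and 12 and 24 with 22 libraries). Of all genes, 5.03% and 5.59%, 7.37% and 9.95%, 7.81% and 6.6%, and 13.3% and 12.5% were higher and lower at these times with 24 libraries. With 22 libraries the shares were 23.8% and 23.4%, 24.1% and 23.8%, 29.5% and 27.9%, and 33.6% and 30.9%. None of the 10 interferon genes passed the filter, and IFNB1 had 2 counts summed over all DMF libraries and 0 over all control libraries. Of the 9 receptor and kinase genes, the kinase TYK2 was lower at all 4 times, with 171, 170 and 170 CPM in DMF at 48 h, against 227, 235 and 232 CPM in control (-0.44 ± 0.07, adjusted p = 5.3e-05). The gamma receptor chain IFNGR2 was lower at 12, 24 and 48 h, with 25.8, 28.2 and 27.4 CPM in DMF at 48 h, against 43.7, 44.9 and 41.5 CPM in control (-0.67 ± 0.07, 1.4e-06). The type I receptor chains were higher late, IFNAR2 at 24 h (0.60 ± 0.12, 0.0012) and 48 h (0.55 ± 0.12, 0.0015), and IFNAR1 at 48 h (0.66 ± 0.14, 0.0012). The receptor kinase gene JAK1 was called at no time with 24 libraries; it had 119, 122 and 118 CPM in DMF at 6 h, against 145, 142 and 150 CPM in control (-0.29 ± 0.29, 0.71; 9.7e-06 with 22 libraries). The 24 h call of TYK2 was lost without any of 21 libraries (0.053 to 0.21), and the 12 and 24 h calls of IFNGR2 without 10 (0.05 to 0.099) and 2 (0.051 and 0.069). With limma on TPM, TYK2 lost its calls at all 4 times (0.052 to 0.53), IFNGR2 at its 3 times (0.15 to 0.82), IFNAR2 at 24 h (0.26) and IFNAR1 at 48 h (0.31).

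Feedback inhibitors moved in both directions. SOCS1 had 6.38, 4.92 and 6.34 CPM in DMF at 6 h, against 2.45, 1.87 and 1.9 CPM in control (1.5 ± 0.15, adjusted p = 2.2e-06), and was also higher at 12 h (1.13 ± 0.16, 6.2e-05). SOCS3, its relative that acts on STAT3 signalling, was lower at all times, with 3.04, 2.66 and 2.59 CPM in DMF at 48 h, against 17.6, 19 and 18.5 CPM in control (-2.77 ± 0.25, 1e-07). The phosphatase gene PTPN2 was lower at 24 h (-0.54 ± 0.09, 0.00042) and 48 h (-0.70 ± 0.10, 1.6e-05), calls lost with limma on TPM (0.26 at both times).

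Among sensing adaptors, the kinase gene IKBKE, which activates IRF factors, had 6.19, 7.18 and 7.39 CPM in DMF at 6 h, against 15.5, 14.9 and 17.3 CPM in control (-1.20 ± 0.24, adjusted p = 0.0025), and was lower at 12 h (-1.65 ± 0.24, 8.2e-05) and 48 h (-0.69 ± 0.24, 0.044, lost without any of 20 libraries, 0.052 to 0.16, and with DESeq2, 0.052). ZBP1, a sensor of Z-form nucleic acids, was lower at 6 h (-1.62 ± 0.29, 0.00089) and 12 h (-1.68 ± 0.24, 6.2e-05) and higher at 48 h, with 1.52, 2.15 and 2.1 CPM in DMF, against 0.817, 0.873 and 0.787 CPM in control (1.30 ± 0.25, 0.0007). TLR7, an endosomal RNA receptor, was lower at 6 h (-1.96 ± 0.30, 0.0002) and 12 h (-1.07 ± 0.28, 0.013; 0.061 without control replicate 1 of 12 h, 0.24 with limma on TPM).

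Of the transcription factors outside the list, IRF4, a factor on which lymphomas of this type depend, had 368, 370 and 362 CPM in DMF at 48 h, against 724, 642 and 716 CPM in control (-0.92 ± 0.27, adjusted p = 0.017). It was also called at 24 h (-0.86 ± 0.27, 0.041), a call lost without any of 11 libraries (0.051 to 0.083). IRF3, which MAVS signalling activates, was called at no time with 24 libraries, with 51.3, 51.6 and 53.3 CPM in DMF at 6 h, against 63.5, 67.2 and 66.0 CPM in control (-0.33 ± 0.39, 0.77; 3.4e-05 with 22 libraries). NMI, the partner of IFI35, was lower at 6 h (-0.68 ± 0.14, 0.0035; 0.052 without DMF replicate 1 of 6 h) and 12 h (-0.76 ± 0.14, 0.00092). IRF8 was lower at 48 h (-0.31 ± 0.09, 0.013), a call lost with limma on TPM (-0.08, 0.91), as were those of IRF4 at 24 h (0.45) and 48 h (0.46). Of the further induced genes, the death ligand gene TNFSF10, which encodes TRAIL, was lower at all 4 times, with 0.345, 0.337 and 0.263 CPM in DMF at 12 h, against 1.82, 1.71 and 1.91 CPM in control (-2.49 ± 0.22, 2.1e-07). The cytidine deaminase gene APOBEC3G was lower at all 4 times as well, with 7.3, 7.18 and 6.66 CPM in DMF at 48 h, against 14.9, 16.3 and 17.8 CPM in control (-1.22 ± 0.17, 2.1e-05), and its 24 h call was lost without any of 12 libraries (0.052 to 0.17). NUB1, which targets ubiquitin-like proteins for degradation, was higher at 24 h (0.45 ± 0.07, 0.00022; 0.56 with limma on TPM) and 48 h (0.75 ± 0.07, 3.4e-07).

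Genes outside the list were compared with IFIH1 over the 22 libraries without replicate 3 of 12 h, which span both treatments and all times. The 5 tested genes whose log2 CPM followed IFIH1 most closely were IL7 (Pearson r = 0.967), DZIP1 (0.95), LAT2 (0.946), INTS1 (0.943) and ARHGAP31 (0.935). These coefficients describe libraries that share groups and scaling, and differences between treatments and times enter them. IL7, the cytokine interleukin 7, had 3.88, 3.08 and 3.64 CPM in DMF at 6 h, against 7.55, 8.65 and 9.05 CPM in control (-1.25 ± 0.18, adjusted p = 0.00012), and its log2 fold change was -1.66 ± 0.19 at 48 h (3e-06).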

How the data were processed

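Total RNA of HBL-1 cells was sequenced in 24 libraries. Per the submitters' processing notes, reads were processed with HISAT2, HISAT and RSEM on build GRCh38.p12; versions, strand and annotation are not given in the sources used here. The deposited tables, one per library, hold RSEM expected counts, which the authors did not normalize, and TPM, which the authors scaled by transcript length to a fixed sum. Of the expected counts, 6.16 to 11.5% per library were not whole, since reads shared between genes are split, and they were rounded to whole numbers here.

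Counts were tested with edgeR 4.0.16 (R 4.3.3): TMM scaling, filterByExpr, a quasi-likelihood fit of 8 group means with 16 residual degrees of freedom, and Benjamini-Hochberg adjustment over all 13419 genes tested, called at 0.05. CPM values use TMM-scaled totals, and SE is the log2 fold change divided by the root of F. Alternatives were the fit of 22 libraries, DESeq2 1.42.0, edgeR with DESeq2 scaling, the fit of unfiltered genes, limma 3.58.1 on log2(TPM + 0.5), a replicate term, only the groups compared, and leaving out each library.

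The members, their roles, the pathway and marker lists and the tests were chosen with earlier results of these data known. Values by library and full statistics are given for up to 3 members a role with the smallest p ranks over the 4 times, for the member with the largest p at 24 h, and for those called higher. Of the 66 pathway genes, up to 3 a role with the smallest p are named, with IFNB1, IFNAR1, JAK1 and IRF3 whatever their result; 1 further gene of the list is not reported here. Other members described with values were chosen after those values were seen. Gene coordinates are those of GENCODE v29 (GRCh38), and promoters those of RefSeq (GRCh38.p14). Intervals and limits cover counting error only.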

Additional observations from a re-analysis of the deposited data

Results flagged for a closer look

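The genes below had a DMF effect that differed between times in edgeR's test of the difference itself. Each value is the later log2 fold change minus the earlier one, with its SE and the Benjamini-Hochberg adjusted p.

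From 6 to 24 h, the DMF effect became more positive for OASL (2.42 ± 0.45, 0.0022), DHX58 (1.12 ± 0.31, 0.038) and PARP12 (0.69 ± 0.17, 0.017), and more negative for MX1 (-0.76 ± 0.16, 0.0071). Of the pathway genes outside the list, ZBP1 (2.28 ± 0.37, 7e-04), TLR7 (1.85 ± 0.39, 0.0072), NUB1 (0.62 ± 0.10, 0.00087) and IFNAR2 (0.56 ± 0.16, 0.049) moved up, and SOCS1 (-1.07 ± 0.22, 0.0051) moved down.

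From 6 to 48 h, the effect became more positive for XAF1 (3.43 ± 0.46, 4.6e-05), OASL (3.15 ± 0.48, 0.00017), USP18 (2.57 ± 0.58, 0.0058), OAS2 (2.22 ± 0.59, 0.016), SAMD9 (1.76 ± 0.55, 0.042), SAMD9L (1.76 ± 0.44, 0.012), PARP12 (1.65 ± 0.17, 3.7e-06), GBP2 (1.58 ± 0.27, 0.00047), EIF2AK2 (1.53 ± 0.44, 0.027), MAVS (0.62 ± 0.18, 0.031) and SP110 (0.51 ± 0.11, 0.0034). IFIH1 was the member that moved down (-1.03 ± 0.32, 0.04). Of the pathway genes, ZBP1 (2.92 ± 0.38, 4.3e-05), TLR7 (2.38 ± 0.41, 0.00064) and NUB1 (0.91 ± 0.10, 8.3e-06) moved up, while SOCS1 (-1.54 ± 0.23, 0.00012), SOCS3 (-1.29 ± 0.33, 0.012), IFNGR2 (-0.52 ± 0.10, 0.002), PTPN2 (-0.51 ± 0.13, 0.014) and IRF8 (-0.43 ± 0.13, 0.029) moved down.

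From 24 to 48 h, XAF1 (2.72 ± 0.44, 0.0016), APOL6 (2.13 ± 0.52, 0.027), PARP12 (0.95 ± 0.17, 0.0035) and MX1 (0.78 ± 0.17, 0.013) moved up. The differences from 6 to 24 h and from 6 to 48 h share the 6 h libraries.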

How the results depend on the processing

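No called member changed sign under any alternative. Without replicate 3 of 12 h (22 libraries), members higher and lower in DMF numbered 2 and 29 at 6 h, 8 and 29 at 24 h, then 9 and 15 at 48 h, with 2 higher at 12 h; 34 differed between times jointly, 20 from 6 to 24 h, 25 from 6 to 48 h and 25 from 24 to 48 h; 20, 29 and 35 changed in control; and 39, 33, 40 and 36 pathway genes were called. With limma on TPM, 12, 14, 10 and 3 members were lower, 10 differed jointly, 2 from 6 to 24 h, 5 and 10 changed in control at 12 and 24 h, and 7 and 11 pathway genes were called at 24 and 48 h. With only the groups compared, 2 and 31 members were higher and lower at 6 h, 0 lower at 12 h (17 at an unadjusted p under 0.05), 8 and 27 at 24 h, and 8 and 14 at 48 h; 0 and 31 changed in control at 12 and 24 h; and 41, 0, 38 and 31 pathway genes were called. DESeq2 found 7 members that differed from 6 to 24 h.

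Leaving out 1 library at a time gave 0 to 1 higher and 15 to 25 lower members at 6 h, 0 to 1 and 23 to 32 at 12 h, 0 to 1 and 8 to 25 at 24 h, and 3 to 6 and 5 to 10 at 48 h. It gave 12 to 26 joint differences, 2 to 11 from 6 to 24 h, 8 to 18 from 6 to 48 h and 3 to 10 from 24 to 48 h; 3 to 14, 10 to 23 and 16 to 28 changes in control; and 12 to 18, 12 to 25, 7 to 23 and 16 to 24 pathway genes. The count of lower members at 24 h moved by over 1.5 times without each of the 6 libraries of 24 h, the count of higher members at 48 h without control or DMF replicate 3 of 48 h, the joint count, the 24 to 48 h count and the pathway counts of 12 and 24 h without control replicate 3 of 12 h, and the control counts without each control library of 6 h at 12 h and without control replicate 1 of 6 h at 24 h. The counts of 1 higher member came without control or DMF replicate 3 of 12 h at 6 h, DMF replicate 3 of 12 h at 12 h and control replicate 3 of 12 h at 24 h. The 6 to 24 h count moved without 14 of the 24 libraries. The pathway count of 24 h also moved without control replicates 1 and 2 and DMF replicates 1 and 3 of 24 h. The causes were not tested.

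Deviations from the group mean were correlated between libraries with the same replicate number at 12 h (0.755 to 0.896). Libraries with different numbers were also correlated for replicates 1 and 2 (up to 0.767 and 0.72), but not for replicate 3 (at most -0.827). Deviations from a mean of 3 libraries cancel within a group. A shift of replicate 3 in both groups thus moves replicates 1 and 2 together the other way. The values of replicates 1 and 2 at 12 h therefore cannot show whether same-numbered libraries belong together. Same-numbered libraries did not deviate together at 6, 24 or 48 h (-0.06 to 0.043), so the numbers were not taken as pairs over the series. The replicate block is the same at every time, so it cannot take up a shift shared by replicate 3 at 12 h alone. With the replicate block, 0 members were higher and 20 lower at 6 h, 0 higher and 25 lower at 12 h, 0 higher and 17 lower at 24 h, 6 higher and 8 lower at 48 h, and 17 differed between times jointly; none of the counts moved by over 1.5 times. Under the block EPSTI1 (adjusted p = 0.053) and HERC6 (0.055) at 24 h and IFI44L (0.056) at 12 h lost their edgeR calls.

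Low counts limit IFIT1, IFI44L and OAS2, and the 2870754 counts of DMF replicate 1 limit the 48 h values.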
